A study of Mus musculus with 15 samples.

Results

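The genes examined here are the 10 mouse genes for replacement histone variants that give polyadenylated transcripts: H2afz and H2afv (H2A.Z), H2afx (H2A.X), H2afy and H2afy2 (macroH2A), H3f3a and H3f3b (H3.3), Cenpa (CENP-A), and H1f0 and H1fx (linker histones). The rule that lists them uses gene names alone, though it was written with earlier results of these data known, and gave 10 of the 53801 genes in the count table. All 10 passed the filter on low counts in each of 3 comparisons. The counts come from RNA-seq of primary adult neural stem cells (aNSCs) grown from mice aged 2 months, of strain C57BL6/J-129sv, that all carried a Rosa26-CreERT2 transgene. This transgene encodes a Cre recombinase that 4-hydroxytamoxifen (4-OHT) switches on in any cell, and Cre then removes the loxP-flanked (Fl) part of Trrap. There were 3 groups of 5 libraries: Trrap Fl/+ cultures without treatment, Trrap Fl/+ cultures given 4-OHT, and Trrap Fl/Fl cultures given 4-OHT. The labels give 5 days of 4-OHT, whereas the study's methods describe a shorter exposure followed by fresh medium. The 2 Fl/+ groups are paired cultures of 5 mice (numbers 19, 24, 26, 35 and 36), and the Fl/Fl group from 5 others (27, 28, 29, 37 and 39). 4-OHT can also open the single floxed allele of the Fl/+ cultures, and no untreated Fl/Fl cultures were analysed here. By their labels 3 of the 5 mice in each group were male and 2 female, and in the Fl/Fl group the 2 females are also the 2 mice with numbers above 30, so that sex and number series cannot be told apart there. Among mice 19 to 29 all 3 Fl/Fl mice were male and 2 of the 3 Fl/+ mice female, and among mice 35 to 39 both Fl/Fl mice were female and both Fl/+ mice male.

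Histone variants replace the canonical histones of nucleosomes at particular places and outside S phase. Canonical histones come from clustered replication-dependent genes whose mRNAs end in a stem-loop and normally lack a poly(A) tail. Replacement variant genes give polyadenylated mRNAs, in most cases not limited to S phase. Any transcripts of a variant gene that lack a poly(A) tail would largely be missed in these poly(A) libraries. H2A.Z marks promoters and enhancers and is put there by the TIP60/EP400 and SRCAP remodelling complexes. TRRAP is the large scaffold protein of TIP60/EP400 and of the SAGA-type acetyltransferase complexes. H2A.X is phosphorylated next to DNA breaks, the macroH2A proteins carry a large extra domain and are typical of repressed chromatin, H3.3 is laid down at active genes and at repeats, CENP-A defines the centromere, and H1.0 is the linker histone known for building up in cells that have left the cell cycle.

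Libraries held 25.7 M to 32.2 M assigned counts, and levels are given as CPM, the count relative to the TMM-scaled library total. Trrap itself was 164 ± 26.4 CPM (SD, n = 5) in Fl/+ 4-OHT and 104 ± 24.2 CPM (SD, n = 5) in Fl/Fl 4-OHT cultures, a log2 fold change of -0.64 ± 0.160 (SE), with an adjusted p of 0.0115 by edgeR's quasi-likelihood test with Benjamini-Hochberg adjustment, the test behind every adjusted p below unless another is named. The Fl/Fl culture of mouse 29 kept 142 CPM of Trrap, inside the Fl/+ 4-OHT range of 138 to 204 CPM, and the other 4 lay between 82.8 and 115 CPM. The 10 neural stem cell markers summed to between 6502 and 11195 CPM in every library. The 7 astrocyte markers summed to 2939 to 6517 CPM and the 8 neuron markers to 557 to 1116 CPM, while the 6 microglia markers summed to at most 2.01 CPM and the 5 endothelial markers to at most 8.53 CPM. Most of the neuron sum came from Map2 alone, at 512 to 968 CPM. Other neuron markers were far lower, with highest values of 77.0 (Dcx), 64.2 (Tubb3), 17.9 (Snap25), 15.0 (Neurod1), 14.9 (Rbfox3), 3.67 (Syt1) and 1.31 CPM (Stmn2). The Fl/Fl library of mouse 37 stood apart, with 2748 CPM over 7 oligodendrocyte markers against 687 to 953 CPM in the other Fl/Fl libraries, and 6517 CPM over 7 astrocyte markers against 3136 to 3774 CPM.

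After Trrap deletion (Fl/Fl 4-OHT against Fl/+ 4-OHT), 6 of the 10 variant genes fell and none rose: H2afz, H2afv, H2afy, H2afy2, Cenpa and H1f0. Over all genes tested in that comparison, 15.0% were called lower and 16.8% higher. The other 4, H2afx, H3f3a, H3f3b and H1fx, also had log2 fold changes below 0, so that all 10 pointed one way, where 48.3% of all genes tested were below 0. The median log2 fold change of the 10 genes was -0.41, against 0.02 over all genes tested. In 4 genes (H2afy, H2afy2, Cenpa and H1f0) the 5 Fl/Fl libraries all lay below the 5 Fl/+ 4-OHT libraries, a separation downward seen in 11.4% of all genes tested. All 10 differences were also below 0 within each series of mouse numbers taken alone (mice 19 to 29, and mice 35 to 39), as were those of 38.5% of all genes tested. Sex and genotype cannot be told apart among mice 35 to 39. With sex as a term over both series, 6 of the 10 genes were called lower and none higher.

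**Figure D1:**
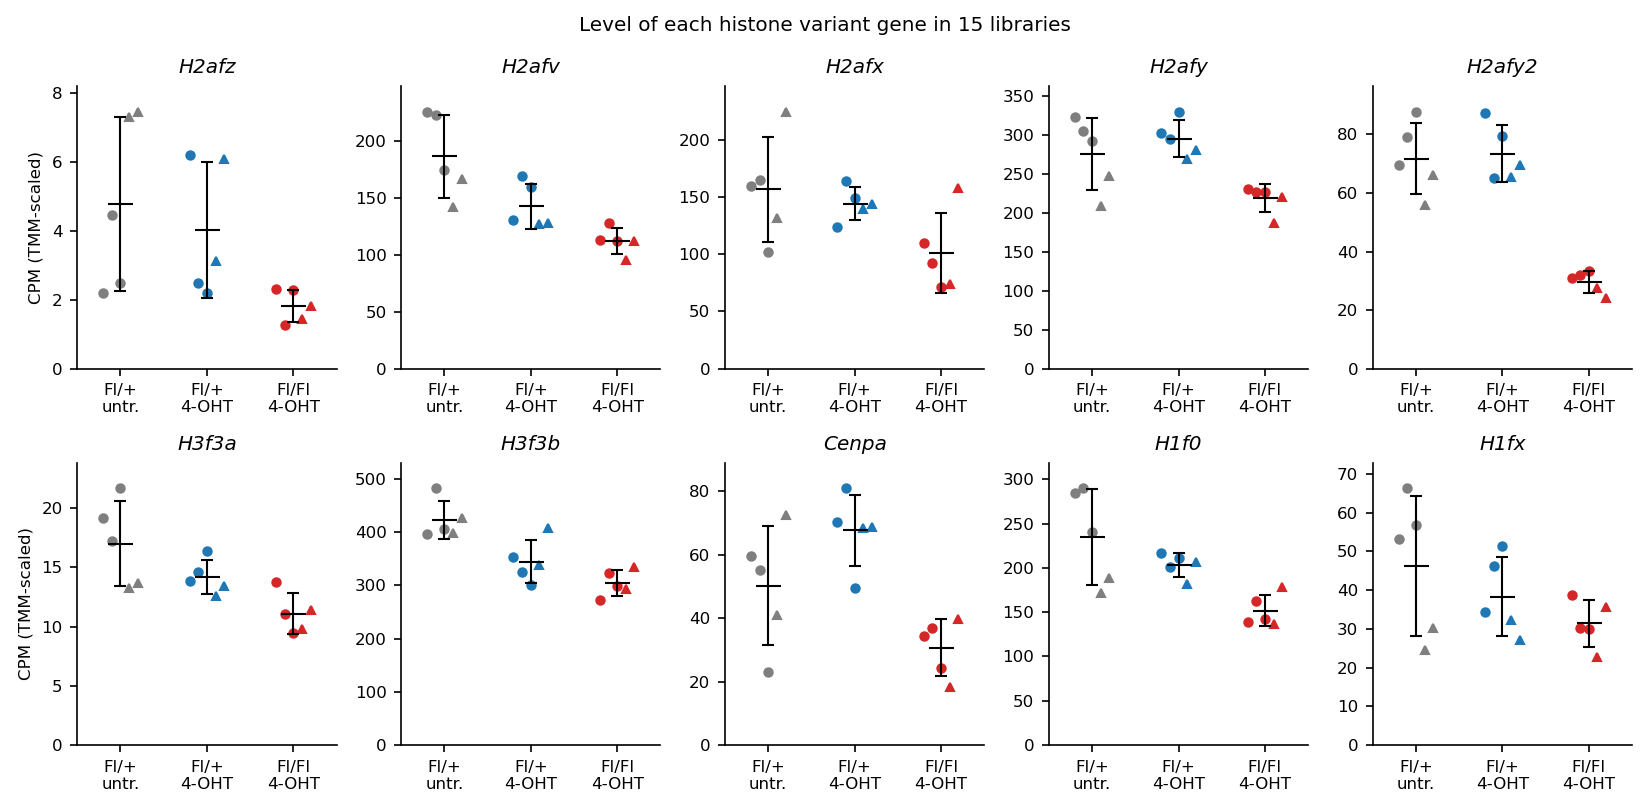
CPM of the 10 variant genes (each y axis starts at 0) in Fl/+ untreated, Fl/+ 4-OHT and Fl/Fl 4-OHT cultures. Each point is 1 library, circles for mice numbered 19 to 29 and triangles for 35 to 39, and the black marks give the mean ± SD of 5 libraries. H2afy2 separates the Fl/Fl libraries (24.0 to 33.2 CPM) from both Fl/+ groups by the widest margin, and H2afz stays under 8 CPM throughout.

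**Figure D2:**
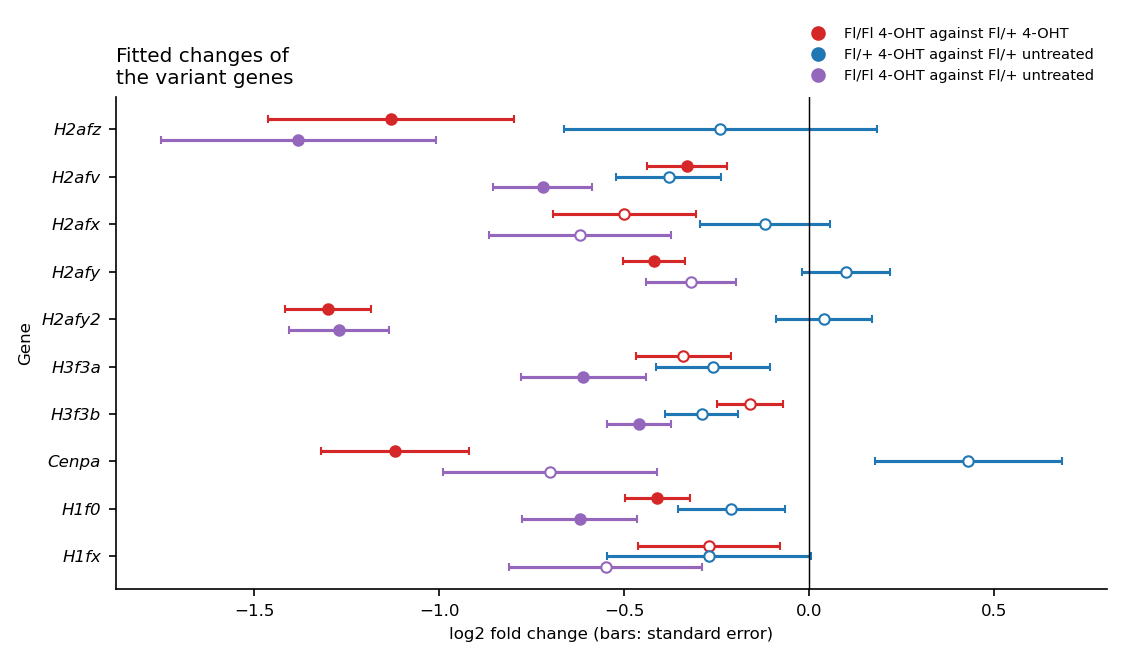
Fitted log2 fold changes of the 10 variant genes (x axis, bars give the standard error) in the 3 comparisons, with filled points for an adjusted p under 0.05 and open points for the rest. All Fl/Fl against Fl/+ points lie left of 0, and all points of the 4-OHT comparison in Fl/+ cultures are open.

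H2afy2, which encodes macroH2A2, gave the clearest difference of the 10 genes. It had 69.7, 79.2, 87.8, 56.0 and 66.1 CPM in the untreated Fl/+ cultures of mice 19, 24, 26, 35 and 36. In the same mice after 4-OHT it had 87.3, 65.2, 79.6, 65.5 and 69.6 CPM. In the Fl/Fl 4-OHT cultures of mice 27, 28, 29, 37 and 39 it had 30.8, 32.1, 33.2, 27.4 and 24.0 CPM. The Fl/+ groups overlapped almost fully, and the highest Fl/Fl library was below the lowest library of either. H2afy2 was thus 2.46-fold lower after Trrap deletion (log2 fold change -1.30 ± 0.116 (SE), adjusted p 5.85e-05), the largest fall of the 10 genes in that comparison. The difference was -1.25 on the log2 scale among mice 19 to 29 and -1.38 among mice 35 to 39. An exact two-sided permutation test gave p = 0.00794, the smallest that 5 against 5 libraries allow.

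H2afy, which encodes macroH2A1, fell less. Its levels were 323, 305, 293, 209 and 247 CPM in untreated Fl/+ cultures (mice 19, 24, 26, 35 and 36), and 303, 295, 330.1, 269 and 281 CPM in the same mice after 4-OHT. The Fl/Fl cultures of mice 27, 28, 29, 37 and 39 had 231, 227, 227, 187 and 221 CPM. All Fl/Fl libraries were again below all Fl/+ 4-OHT libraries, but they overlapped the untreated ones, where mouse 35 was at 209 CPM. Fl/Fl differed from Fl/+ 4-OHT cultures by -0.42 ± 0.0842 on the log2 scale (SE; adjusted p 0.00381). The contrast with untreated Fl/+ cultures gave -0.32 ± 0.122 (SE; adjusted p 0.0674).

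The balance between the macroH2A genes shifted with Trrap deletion. Per kilobase of annotated exon, H2afy2 made up 43.7% ± 2.36 (SD, n = 5) of the H2afy2 and H2afy signal in Fl/+ 4-OHT and 29.7% ± 2.53 (SD, n = 5) in Fl/Fl 4-OHT cultures. In untreated Fl/+ cultures the share was 45.0% ± 2.93 (SD, n = 5). The share depends on the length used, and per kilobase of uniquely placed sequence it was 22.1% and 13.3% in the treated groups. The H2afy2 to H2afy count ratio, which no length affects, was lower by 0.88 on the log2 scale in Fl/Fl 4-OHT than in Fl/+ 4-OHT cultures (from -2.02 ± 0.14 to -2.90 ± 0.18, SD), with no overlap between the groups. An exact two-sided permutation test gave p = 0.00794, or 0.0357 adjusted over 9 such ratio tests (3 gene pairs in 3 comparisons).

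The H2A.Z genes had to be read with their sequences at hand. H2afz (chromosome 3, 137864487 to 137866922, plus strand, GRCm38) and H2afv (chromosome 11, 6427229 to 6444443, minus strand) encode H2A.Z.1 and H2A.Z.2, nearly identical proteins, from coding sequences of 384 bases (stop codon left out) that match at 79.2% of positions. The first 120 coding bases of each are shown with the differing bases in capitals, because a read must cross such bases to be placed in one gene rather than the other.
H2afz: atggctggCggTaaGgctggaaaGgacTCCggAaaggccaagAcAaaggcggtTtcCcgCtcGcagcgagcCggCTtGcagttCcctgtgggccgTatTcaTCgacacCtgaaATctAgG
H2afv: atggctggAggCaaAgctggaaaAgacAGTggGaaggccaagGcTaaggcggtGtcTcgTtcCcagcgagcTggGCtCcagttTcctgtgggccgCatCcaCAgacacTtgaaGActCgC
The 80 differing bases were spread out, 69 of them at the third position of a codon, and the longest identical stretch was 14 bases. The reads were 51 bases long, so H2afz and H2afv could not be confused with each other. H2afz had another limit: 7 further genes, 5 of them processed pseudogenes, held copies of it. Of the 1019 windows of 51 bases along its transcript, only 22.6% had no copy within 1 mismatch in the annotated transcripts of another gene, and of the 434 windows that touched its coding sequence none did. The first 240 coding bases of H2afz follow with capitals for bases inside a window with no such copy, and they hold no capital.
H2afz coding bases: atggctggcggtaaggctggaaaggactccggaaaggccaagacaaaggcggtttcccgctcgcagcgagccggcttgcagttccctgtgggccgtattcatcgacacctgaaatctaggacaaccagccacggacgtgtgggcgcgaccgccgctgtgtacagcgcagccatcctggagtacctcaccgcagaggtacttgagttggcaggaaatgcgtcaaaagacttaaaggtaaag
For H2afv all 1583 windows were free of copies. For H2afz, all 434 of the windows touching the coding sequence had an exact copy elsewhere. Only reads placed at 1 position were counted, so its level is likely to be too low against other genes. How many reads over its exon junctions the aligner still placed was not tested.

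**Figure D3:**
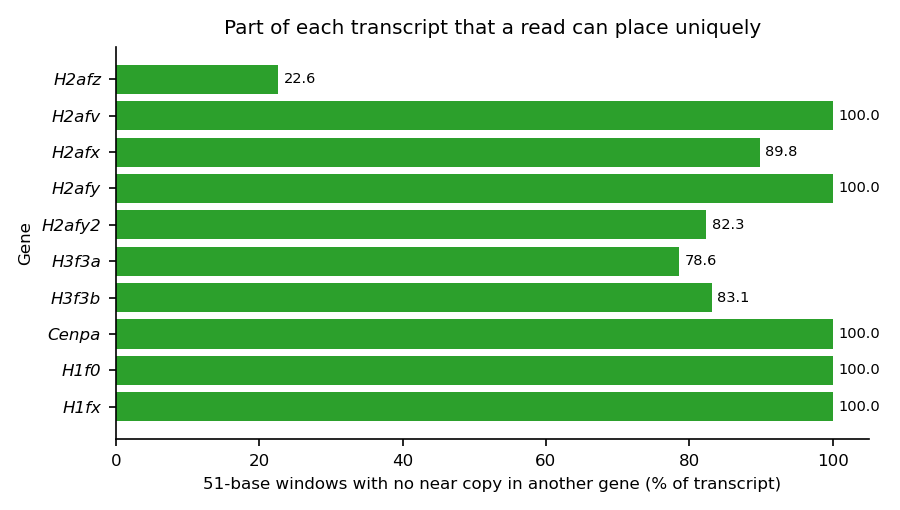
Share of 51-base windows along the longest coding transcript of each variant gene (x axis, percent) that had no copy within 1 mismatch in an annotated transcript of another gene. H2afz stands out at 22.6%, the next lowest is H3f3a at 78.6%, and 5 genes are at 100%.

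H2afz was listed at 2.21, 4.46, 2.48, 7.31 and 7.47 CPM in untreated Fl/+ cultures (mice 19, 24, 26, 35 and 36). After 4-OHT the same mice had 6.22, 2.5, 2.21, 3.12 and 6.10 CPM. Fl/Fl 4-OHT cultures (mice 27, 28, 29, 37 and 39) had 2.30, 1.26, 2.29, 1.43 and 1.81 CPM. These levels rest on 37 to 203 counts per library, they vary about as much between Fl/+ cultures of 1 group as between groups, and the lowest Fl/+ libraries reach into the Fl/Fl range. Trrap deletion gave a log2 fold change of -1.13 ± 0.333 (SE; adjusted p 0.0247), and the adjusted p rose above the threshold when Fl/+ 4-OHT mouse 19 (0.0619), Fl/+ 4-OHT mouse 36 (0.0567) or Fl/Fl mouse 28 (0.0565) was left out. Among mice 19 to 29 the difference was -0.66 with overlapping groups, and among mice 35 to 39 it was -1.21 without overlap.

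H2afv was the far better measured H2A.Z gene. Its levels in untreated Fl/+ cultures (mice 19, 24, 26, 35 and 36) were 226, 223, 175, 142 and 167 CPM. After 4-OHT they were 131, 169, 159.5, 127 and 128 CPM in the same mice. In Fl/Fl 4-OHT cultures (mice 27, 28, 29, 37 and 39) they were 113, 128, 112, 95.5 and 112 CPM. The values step down from group to group, with the Fl/Fl libraries below every untreated library and touching the lowest treated Fl/+ libraries. Trrap deletion gave a log2 fold change of -0.33 ± 0.107 (SE; adjusted p 0.0344). This call was not firm, since the adjusted p rose above 0.05 in 6 of the 10 fits that left out 1 library (0.0506 to 0.0614 without Fl/+ 4-OHT mouse 24 or 26, or Fl/Fl mouse 27, 29, 37 or 39). Against untreated Fl/+ cultures, H2afv was 1.65-fold lower (log2 fold change -0.72 ± 0.134 (SE), adjusted p 0.00251). The H2afz to H2afv count ratio did not pass a test in any comparison (exact two-sided permutation test, p = 0.151, 0.762 and 0.365 after Trrap deletion, 4-OHT and both).

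The promoters of the H2A.Z genes are shown because both genes were called lower. These are the parts of the RefSeq window from 250 bases before to 50 after the start (GRCm38.p6) that no annotated exon covers, 5′ to 3′ on the gene's strand. Capitals mark matches, on either strand, to 4 strings of letters: GGGCGG, known as the GC box, then CCAAT, that of nuclear factor Y, then TTTGAA, the cell cycle homology region, and lastly CACGTG, the E-box.
H2afz, chr3:137864375-137864486, plus strand: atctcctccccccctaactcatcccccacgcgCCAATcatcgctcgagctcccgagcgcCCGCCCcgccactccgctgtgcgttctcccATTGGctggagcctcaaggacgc
H2afv, chr11:6444444-6444693, minus strand: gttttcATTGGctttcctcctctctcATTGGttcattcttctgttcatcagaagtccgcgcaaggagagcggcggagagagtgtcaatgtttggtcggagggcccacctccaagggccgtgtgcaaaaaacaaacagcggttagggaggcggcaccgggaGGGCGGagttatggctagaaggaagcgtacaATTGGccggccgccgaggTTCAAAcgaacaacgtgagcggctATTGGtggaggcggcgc
Windows were found for 9 of the 10 variant genes. The counts that follow are over whole windows of 300 bases, also the bases under exons that are not printed above, so a match may lie outside the printed part. GGGCGG occurred in 7 of them and in 35.7% of all 32851 promoter windows, CCAAT in 6 and in 37.4%, TTTGAA in 2 (H2afv and Cenpa) and in 17.9%, and CACGTG in 1 (H2afz) and in 7.2%. H2afv held 4 CCAAT matches, as did H3f3b, and the Cenpa window held 2. A match says only that these letters are present.

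Of 31 genes for H2A.Z exchange (subunits of TIP60/EP400, SRCAP and INO80, and the H2A.Z chaperone Anp32e), 6 rose and 5 fell after Trrap deletion, and the median log2 fold change was -0.11. Among all genes tested 16.8% rose and 15.0% fell, so these counts lie near the shares over all genes. The list contains Trrap itself. The largest changes beside Trrap were those of Anp32e, which takes H2A.Z out of nucleosomes (406 to 263 CPM, log2 fold change -0.61, adjusted p 0.00132), of the INO80 subunit Ino80c (22.8 to 33.6 CPM, 0.57, adjusted p 0.00685) and of the TIP60/EP400 subunit Brd8 (132 to 93.4 CPM, -0.49, adjusted p 0.00280). Ino80c had fallen after 4-OHT in Fl/+ cultures (34.5 to 22.8 CPM, -0.59, adjusted p 0.0170), the group that both comparisons share, and Fl/Fl differed from untreated Fl/+ cultures by -0.02 (adjusted p 0.903). Anp32e and Brd8 were also called lower against untreated cultures (-0.57, adjusted p 0.0122, and -0.35, adjusted p 0.0163).

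CENP-A and H2A.X followed a different order of libraries. Cenpa had 59.4, 55.1, 23.1, 41.1 and 72.5 CPM in untreated Fl/+ cultures (mice 19, 24, 26, 35 and 36). After 4-OHT the same mice had 70.4, 80.9, 49.6, 68.4 and 68.7 CPM. Fl/Fl 4-OHT cultures (mice 27, 28, 29, 37 and 39) had 34.2, 36.8, 24.4, 18.4 and 39.6 CPM. The Fl/Fl libraries lay below all Fl/+ 4-OHT libraries but overlapped the untreated group, where mouse 26 was as low as the Fl/Fl cultures. Cenpa was 2.18-fold lower after Trrap deletion (log2 fold change -1.12 ± 0.200 (SE), adjusted p 0.00204). The contrast with untreated Fl/+ cultures gave -0.70 ± 0.289 (SE; adjusted p 0.0894), or -0.88 (adjusted p 0.0186) without untreated mouse 26.

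H2afx, which encodes H2A.X, had 160.2, 165, 102, 132 and 225 CPM in untreated Fl/+ cultures (mice 19, 24, 26, 35 and 36). After 4-OHT the same mice had 124, 164, 149.6, 140.0 and 144 CPM, and the Fl/Fl cultures of mice 27, 28, 29, 37 and 39 had 110.3, 92.4, 71.1, 74.4 and 158 CPM. Of the Fl/Fl cultures 4 lay below every Fl/+ 4-OHT culture, and mouse 39 lay near the top of that group. Trrap deletion gave a log2 fold change of -0.50 ± 0.193 (SE), with an adjusted p of 0.0694. Without the Fl/Fl library of mouse 39 it was -0.72 (adjusted p 0.00424). 10.2% of the H2afx windows had a copy elsewhere, mostly in the Hist1h2a genes.

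Most of the proliferation genes listed fell after Trrap deletion, as Cenpa did. Of a list of 20 genes for S phase, G2 and mitosis, 13 fell and none rose after Trrap deletion (15.0% of all genes tested fell), with a median log2 fold change of -0.90. The largest changes were those of Rrm2, a subunit of ribonucleotide reductase (-1.42), the proliferation marker Mki67 (-1.35), cyclin A2 (Ccna2, -1.25) and the chromosomal passenger Birc5 (-1.09). In the comparison with untreated Fl/+ cultures 2 of the 20 genes fell, Rrm2 (-1.24) and Mki67 (-0.86), and 1 rose, E2f1 (1.01). The median there was -0.52, and 15.1% of all genes tested fell. Ccna2 (-0.88, adjusted p 0.0654) and Birc5 (-0.70, adjusted p 0.111) were not called in that comparison. The summed level of the list was 1667 to 2693 CPM in Fl/+ 4-OHT, 775 to 1729 CPM in Fl/Fl 4-OHT and 855 to 3063 CPM in untreated Fl/+ cultures. The library with the lowest Cenpa (Fl/Fl mouse 37) also had the lowest sum, the untreated library with the lowest Cenpa and H2afx (mouse 26) had the lowest sum of its group, and Fl/Fl mouse 39, the highest Fl/Fl library for both genes, had the highest sum of its group. H2afy2 did not share that order, since untreated mouse 26 had its highest level of all libraries. The part of cell division in the Cenpa and H2afx values was not tested.

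**Figure D4:**
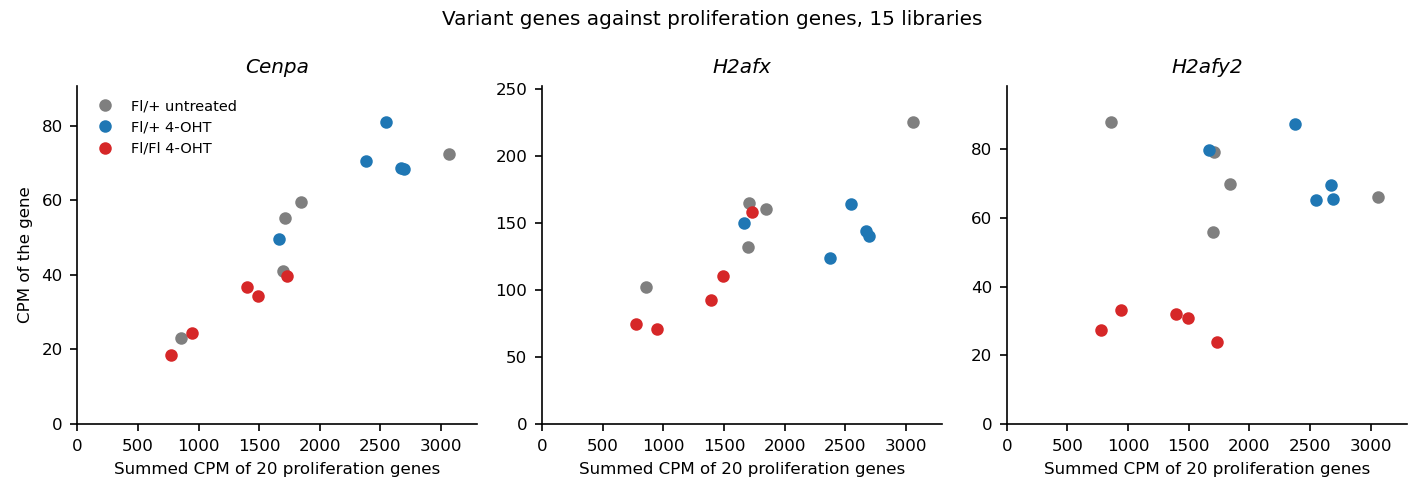
CPM of Cenpa, H2afx and H2afy2 (y axes) against the summed CPM of 20 proliferation genes (x axis) in 15 libraries coloured by group. In each group the library with the lowest sum has the lowest Cenpa, and for H2afx this holds in the untreated group alone. The Fl/Fl libraries have low H2afy2 (24.0 to 33.2 CPM) at sums from 775 to 1729 CPM, a range that also holds Fl/+ libraries with high H2afy2.

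Of 20 genes for CENP-A deposition and the inner kinetochore, 5 fell and none rose after Trrap deletion, with a median log2 fold change of -0.33. Among them, Cenpl went from 14.1 to 7.12 CPM (log2 fold change -0.97, adjusted p 0.00363), Cenpt from 48.2 to 25.9 CPM (-0.88, adjusted p 7.27e-05) and Cenpw from 6.83 to 4.37 CPM (-0.63, adjusted p 0.0208). Cenpl, Cenpt and Cenpw are subunits of the inner kinetochore. Of 20 genes for H2A.X phosphorylation and its readers, 2 fell (the kinases Atm, -0.48, and Baz1b, -0.43), Nbn of the MRN complex rose (0.40), and the median was -0.08. These counts are below the shares over all genes tested (15.0% lower and 16.8% higher), while 5 of 20 for CENP-A is above the former.

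Of the 10 genes, H3f3b had the smallest difference after Trrap deletion, and neither H3.3 gene was called there. H3f3b had 397, 483, 407, 399 and 426 CPM in untreated Fl/+ cultures (mice 19, 24, 26, 35 and 36). After 4-OHT the same mice had 353, 325, 300.1, 339 and 408 CPM. The Fl/Fl cultures of mice 27, 28, 29, 37 and 39 had 273, 323, 299, 294 and 335 CPM. The treated groups overlapped broadly, and the Fl/Fl libraries lay below every untreated library. Trrap deletion gave a log2 fold change of -0.16 ± 0.0888 (SE; adjusted p 0.183). Against untreated Fl/+ cultures H3f3b fell, by 0.46 ± 0.0864 (SE; adjusted p 0.00277) on the log2 scale.

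H3f3a, the other H3.3 gene, was at 19.2, 17.2, 21.7, 13.3 and 13.7 CPM in untreated Fl/+ cultures (mice 19, 24, 26, 35 and 36) and at 13.9, 14.6, 16.4, 12.6 and 13.4 CPM in the same mice after 4-OHT. Fl/Fl 4-OHT cultures (mice 27, 28, 29, 37 and 39) had 13.8, 11.1, 9.44, 9.78 and 11.4 CPM. The lowest Fl/+ libraries and the highest Fl/Fl library overlapped. Trrap deletion gave a log2 fold change of -0.34 ± 0.128 (SE; adjusted p 0.0636), or -0.43 (adjusted p 0.0240) without Fl/Fl mouse 27. Against untreated Fl/+ cultures H3f3a fell, by 0.61 ± 0.169 (SE; adjusted p 0.0191) on the log2 scale. H3f3a and H3f3b encode the same H3.3 protein from coding sequences of 408 bases that match at 76.7% of positions. Their first 120 bases are shown with differing bases in capitals, since a single protein is read here from separate genes.
H3f3a: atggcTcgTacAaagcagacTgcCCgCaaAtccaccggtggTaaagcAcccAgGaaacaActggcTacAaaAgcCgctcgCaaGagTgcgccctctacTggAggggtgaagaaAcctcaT
H3f3b: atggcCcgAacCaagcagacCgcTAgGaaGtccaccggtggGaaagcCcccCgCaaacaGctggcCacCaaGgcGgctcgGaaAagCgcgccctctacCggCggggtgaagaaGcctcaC
Of the 95 differing bases 81 fell at the third position of a codon. Copies in other genes, for H3f3a 47 of them pseudogenes, left 18.3% of the windows touching the H3f3a coding sequence and 26.0% of those touching the H3f3b coding sequence free of a copy. H3f3a made up 3.42% ± 0.667 (SD, n = 5) of the H3.3 signal per kilobase of exon in Fl/+ 4-OHT and 3.02% ± 0.611 (SD, n = 5) in Fl/Fl 4-OHT cultures, and the count ratio of the genes did not differ by the exact two-sided permutation test (p = 0.294).

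Of 11 genes for H3.3 deposition (HIRA and DAXX/ATRX chaperones), 6 fell and none rose after Trrap deletion (15.0% of all genes tested fell), with a median log2 fold change of -0.25. They included the remodeller Chd2 (-0.64, adjusted p 0.000597), the HIRA partners Ubn2 (-0.51, adjusted p 0.00858) and Ubn1 (-0.40, adjusted p 0.00209), and Atrx (-0.42, adjusted p 0.00724). After 4-OHT in Fl/+ cultures Ubn2 (0.49), Chd2 (0.39) and Ubn1 (0.37) rose and Asf1a, a histone H3 and H4 chaperone, fell (-0.39, adjusted p 0.0305), where 7.34% of all genes tested rose and 6.45% fell. The comparisons share the Fl/+ 4-OHT libraries, so that a high value there raises one difference and lowers the other. Against untreated Fl/+ cultures Ubn1 and Ubn2 each differed by -0.03 (adjusted p 0.804 and 0.888) and Atrx by -0.26 (adjusted p 0.127), while 4 of the 11 genes fell: Asf1a (-0.72, adjusted p 0.000110), Hira (-0.45, adjusted p 0.00625), Chd2 (-0.26, adjusted p 0.0388) and the remodeller Chd1 (-0.21, adjusted p 0.0378), against 15.1% of all genes tested.

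The linker histone H1f0 had 285, 289.9, 241, 172 and 188 CPM in untreated Fl/+ cultures (mice 19, 24, 26, 35 and 36). After 4-OHT the same mice had 217, 201, 211, 182 and 207 CPM. In Fl/Fl 4-OHT cultures (mice 27, 28, 29, 37 and 39) it had 139, 163, 142, 137 and 178 CPM. The Fl/Fl libraries lay below all treated Fl/+ libraries, and mouse 39 reached the lowest untreated one. H1f0 was 1.33-fold lower after Trrap deletion (log2 fold change -0.41 ± 0.0872 (SE), adjusted p 0.00508) and 1.54-fold lower than in untreated Fl/+ cultures (-0.62 ± 0.155 (SE), adjusted p 0.0112). Within the number series the latter difference was -0.88 for mice 19 to 29 and -0.20, with overlapping groups, for mice 35 to 39.

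H1fx, which encodes H1.10, had 53.3, 66.3, 56.7, 24.5 and 30.2 CPM in untreated Fl/+ cultures (mice 19, 24, 26, 35 and 36). After 4-OHT the same mice had 34.3, 46.1, 51.5, 32.2 and 27.0 CPM, and Fl/Fl 4-OHT cultures (mice 27, 28, 29, 37 and 39) had 38.6, 30.2, 29.9, 22.7 and 35.7 CPM. Untreated mice 19, 24 and 26 were all above untreated mice 35 and 36, a difference between mice that was as wide as any between groups. Deletion of Trrap was accompanied by a log2 fold change of -0.27 ± 0.192 (SE; adjusted p 0.310). Against untreated Fl/+ cultures it was -0.55 ± 0.261 (SE; adjusted p 0.135), with -0.83 among mice 19 to 29 and 0.06 among mice 35 to 39.

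Against untreated Fl/+ cultures, a comparison that joins Trrap deletion with 4-OHT, 6 of the 10 genes fell and none rose (15.1% of all genes tested were called lower): H2afz (log2 fold change -1.38 ± 0.372 (SE), adjusted p 0.0165), H2afv, H2afy2 (-1.27 ± 0.135 (SE), adjusted p 0.000133), H3f3a, H3f3b and H1f0. The groups did not overlap for H2afv, H2afy2 and H3f3b, a separation downward seen in 11.6% of all genes tested. The median over the 10 genes was -0.62, against 0.00 over all genes tested. This comparison shares its Fl/Fl libraries with the Trrap deletion comparison.

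4-OHT given to Fl/+ cultures left the variant genes without a call: none of the 10 passed in either direction, where 6.45% of all genes tested were called lower and 7.34% higher. At an unadjusted p under 0.05, H2afv and H3f3b passed, 2 of 10, against 29.4% of all genes tested, and DESeq2 called 1 gene, H3f3b (log2 fold change -0.29, adjusted p 0.0349). No gene separated the groups, which 12.0% of all genes tested did in one direction or the other. Since both groups came from the same mice, the mouse could be kept as a block. In that fit H2afv (-0.37, adjusted p 0.0289) and H3f3b (-0.29, adjusted p 0.0485) were lower and Cenpa (0.51, adjusted p 0.0402) was higher after 4-OHT, 2 of 10 lower and 1 of 10 higher, where 11.9% of all genes tested were called lower and 13.8% higher. H2afv, H3f3a and H3f3b were lower in 5 of 5 mice, by 0.13 to 0.78, 0.03 to 0.45 and 0.06 to 0.57 on the log2 scale. Cenpa was higher in 4 of 5 mice. The exact sign-flip test, two-sided, gave p = 0.0625 for each of the first 3 genes, the smallest that 5 pairs allow, and p = 0.125 for Cenpa. In the fit without the mouse as a block, none of the 20 proliferation genes was called after 4-OHT, and their median log2 fold change was 0.36. Their summed level in mice 19, 24, 26, 35 and 36 was 1843, 1710, 855, 1699 and 3063 CPM untreated. After 4-OHT it was 2377, 2549, 1667, 2693 and 2670 CPM. The 4-OHT results of all gene lists come from the fit without the block.

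The replication-dependent histone genes are set beside the variant genes, whose median log2 fold change was -0.22 after 4-OHT and -0.41 after Trrap deletion. These comparisons share the Fl/+ 4-OHT libraries, and a difference between the sets of genes was not tested. Of 67 protein-coding replication-dependent histone genes 13 could be tested, and 23 had at most 3 counts in every library. Their summed level was 211, 318, 215, 224 and 171 CPM in untreated Fl/+ cultures (mice 19, 24, 26, 35 and 36). After 4-OHT it was 63.2, 81.3, 60.1, 103 and 94.5 CPM, and in the Fl/Fl cultures of mice 27, 28, 29, 37 and 39 it was 119, 120, 95.7, 173 and 247 CPM. The treated Fl/+ libraries were below every untreated library, and the Fl/Fl libraries spread from the treated Fl/+ range (mouse 29) to the untreated range (mice 37 and 39), with mice 27 and 28 between them. After 4-OHT 8 of the 13 fell and none rose, with a median log2 fold change of -1.03 (6.45% of all genes tested fell). After Trrap deletion 4 rose and 1 fell, with a median of 0.77 (16.8% of all genes tested rose). Fl/Fl 4-OHT against untreated Fl/+ cultures gave 4 genes that fell and none that rose, with a median of -0.54, the same direction as the variant genes (15.1% of all genes tested fell). Most of the sum came from Hist1h1c, a linker histone gene, which was 135 CPM in untreated Fl/+, 33.2 CPM in Fl/+ 4-OHT and 77.0 CPM in Fl/Fl 4-OHT cultures on average (log2 fold change -2.01, adjusted p 0.00152, after 4-OHT and 1.23, adjusted p 0.0190, after Trrap deletion), and from Hist1h2bc (-1.13, adjusted p 0.00600, and 1.26, adjusted p 0.00455). Hist3h2ba, an H2B gene, fell after Trrap deletion (7.86 to 3.98 CPM, -0.96, adjusted p 0.0255), and Hist3h2a fell after 4-OHT (-0.98, adjusted p 0.0287). More reads of such genes in a poly(A) library can mean more mRNA or a larger polyadenylated part, which cannot be told apart here.

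**Figure D5:**
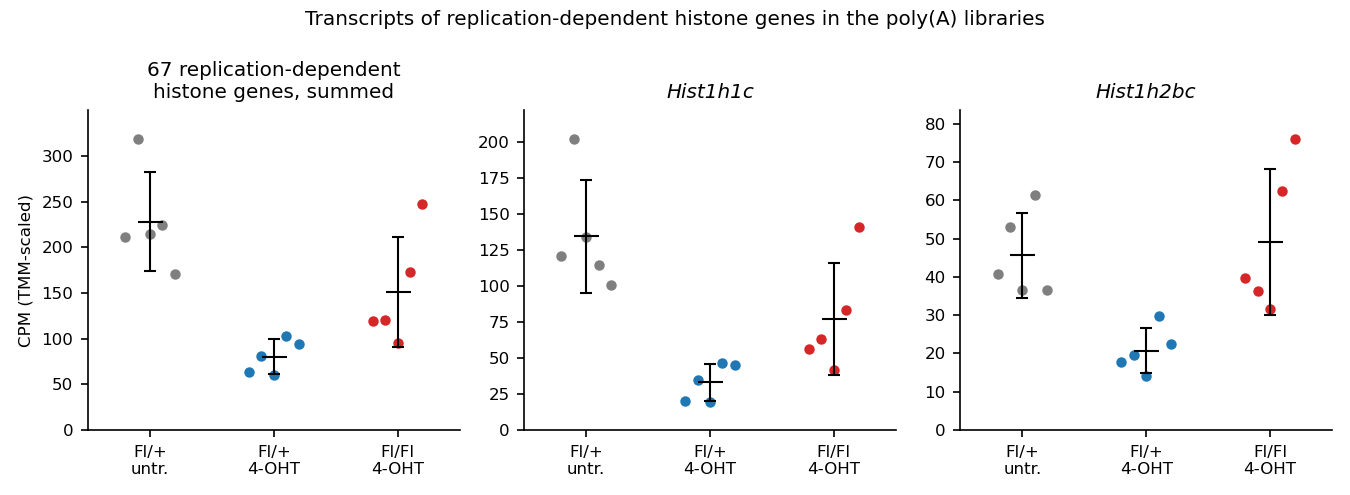
Summed CPM of 67 replication-dependent histone genes, and CPM of Hist1h1c and Hist1h2bc, in the 3 groups (y axes start at 0, points are libraries, black marks the mean ± SD of 5). All treated Fl/+ libraries lie at 60.1 to 103 CPM of the sum, under the untreated ones, and the Fl/Fl libraries at 95.7 to 247 CPM.

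Genes that make or chaperone replication-dependent histones were listed separately. Of 16 genes for replication-coupled histone supply, 2 fell after Trrap deletion, the H3 and H4 chaperones Asf1b (18.8 to 9.71 CPM, log2 fold change -0.93) and Nasp (214 to 124 CPM, -0.77), and none rose, a share below the 15.0% of all genes tested. Of 12 genes that process replication-dependent histone mRNA, 3 fell (Lsm11, -0.61, and Zfp473, -0.61, of the U7 machinery, and the stem-loop binding protein Slbp, -0.34) and the endonuclease Cpsf3 rose (0.35), the falls a share above the 15.0% of all genes tested. In the comparison with untreated Fl/+ cultures none of these 12 genes fell and 3 rose, Sympk (0.33), Cpsf3 (0.32) and Cstf2 (0.28). Lsm11 (-0.39, adjusted p 0.0517), Slbp (-0.40, adjusted p 0.0503) and Zfp473 (-0.16, adjusted p 0.668) were not called there. Nor was Asf1b (-0.43, adjusted p 0.336), while Nasp was called lower (-0.61, adjusted p 0.0387). None of the 28 genes of these lists was called after 4-OHT in the fit without the mouse as a block. Of 11 other histone variant genes 10 stayed under 1 CPM in all libraries and 6 had no counts.

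Levels of different genes were compared per kilobase of the longest coding transcript. In Fl/+ 4-OHT cultures H2afy (144 ± 11.4 CPM per kb, SD, n = 5) and H3f3b (137 ± 16.0) were highest and within 1 SD of each other, followed by H2afx (104 ± 10.4), H1f0 (99.1 ± 6.50) and H2afv (87.5 ± 12.1), whose ranges also met. Cenpa (46.1 ± 7.70), H2afy2 (33.8 ± 4.45) and H1fx (31.4 ± 8.35) came next, and H3f3a (4.99 ± 0.510) and H2afz (3.77 ± 1.84) were last. H3f3a and H2afz both have copies in other genes, so their levels may be too low. In Fl/Fl 4-OHT cultures H3f3b (121 ± 9.69 CPM per kb) and H2afy (107 ± 8.84) again led. H2afy2 (13.6 ± 1.74) was at place 8 there, below H1fx (25.8 ± 5.02), against place 7 in Fl/+ 4-OHT cultures. It was also at place 8 in untreated Fl/+ cultures (33.0 ± 5.63), below H1fx (38.0 ± 14.8). Divided by the uniquely placed length instead, H2afz in Fl/+ 4-OHT cultures came to 17.5 ± 8.57 CPM per kb and stood above H3f3a (6.46 ± 0.660). The order depends on the length used. Per kilobase of all annotated exons of the gene, H2afy (43.4 ± 3.43) dropped from the top of the order in Fl/+ 4-OHT cultures to a place behind H3f3b (116 ± 13.5), H2afx, H1f0 and H2afv, and Cenpa (11.5 ± 1.93) came behind H2afy2 and H1fx.

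The genes most like each variant gene over the 15 libraries (Pearson r of log2 CPM, 11132 genes searched, a description) differed from member to member. H2afy2 was most like Mex3a, which encodes an RNA-binding protein (r = 0.993), Trim24 (0.991) and D430019H16Rik (0.982). Cenpa was most like Kif2c, a centromeric kinesin (0.991), the lamin B receptor Lbr (0.987) and Cdc20, the mitotic activator of the anaphase-promoting complex (0.986), and H2afx was most like Fam83d (0.936), Chst7 (0.919) and Cdca3 (0.901). H3f3b was most like the chaperone gene Asf1a (0.922), Hnrnpc (0.917) and Atf2 (0.914), and H3f3a like Usf1 (0.955), Mapk4 (0.949) and Chmp4b (0.939). H2afy was nearest to Cenpv (0.939), Rcor2 (0.937) and Mpnd (0.931), H2afv to 2310039H08Rik (0.951), Gpc1 (0.947) and Cdkn1b (0.942), and H2afz to Gm37494 (0.937), Zfp60 (0.934) and Zfp101 (0.923). H1f0 was nearest to Akr1a1 (0.954), Rpl35a (0.945) and Pdcl3 (0.936), and H1fx to Prcc (0.941), Acd (0.932) and Sox3 (0.928). Among the 10 genes themselves 44 of the 45 pairs had an r above 0, with a median of 0.58. Taken as deviations from the group means, 15 of the 45 pairs had an r below 0, the median was 0.21 and the lowest was -0.61 (H2afz and H1fx). The former values also carry the differences between groups, and both carry whatever else the libraries share, such as mouse series.

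Markers of cell types moved as follows in the same comparisons. After Trrap deletion 4 of 10 neural stem cell markers fell (Hes5, -1.0; Prom1, -0.65; Fabp7, -0.61; Sox2, -0.33) and none rose, 2 of the 7 neuron markers tested fell, and 1 of 7 astrocyte and 1 of 7 oligodendrocyte markers rose (15.0% of all genes tested fell and 16.8% rose). After 4-OHT 5 of 7 oligodendrocyte markers rose, with a median log2 fold change of 2.86, and 1 astrocyte marker rose while 3 fell (7.34% of all genes tested rose and 6.45% fell). The part of these shifts in the levels of the variant genes was not tested. In bulk libraries fewer cells of a type and less RNA per cell cannot be told apart. Without the Fl/Fl library of mouse 37, the one rich in oligodendrocyte and astrocyte markers, H2afy2, H2afy, Cenpa and H1f0 were still called lower after Trrap deletion.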

How the data were processed

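Poly(A) RNA of 15 cultures was sequenced from stranded libraries as single-end reads of 51 bases. The authors mapped the reads to GRCm38 with STAR 2.5.4b and assigned uniquely placed reads to Ensembl genes with featureCounts 1.5.0 in stranded mode, and deposited the counts per gene and library without normalization. PCR copies were counted as reads. Totals were 25.7 M to 32.2 M, and all columns were used. IDs were matched to GENCODE vM21 symbols for 53706 of 53801 genes. Groups, sex and mouse numbers came from the labels. Each comparison was fitted on its own 10 libraries with edgeR 4.0.16 (R 4.3.3): filterByExpr (minimum count 10), TMM, quasi-likelihood test, Benjamini-Hochberg adjustment over all genes tested, threshold 0.05. CPM were scaled over all 15 libraries. Permutation tests used log2(CPM + 0.5) or log2 count ratios, with 252 arrangements. The fit was tested on simulated counts. Copies were searched in the annotated transcripts of other genes, so copies outside them were not seen. Sequences are from GENCODE transcripts and RefSeq promoters. Alternatives were DESeq2 1.42.0, other scalings and filters, shared dispersion, sex, number series or mouse as a term, and leaving out each library.

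By their numbers, same-numbered Fl/+ cultures come from 1 mouse before and after 4-OHT, and the numbers were taken to pair the samples. Their deviations from the group means correlated at 0.204 to 0.586 over 15435 genes. Cultures with different numbers correlated at -0.489 to 0.317, so the ranges overlapped. The genes reported by name were the 10 variant genes and Trrap, from each list at most 4 called genes with the largest change, the 3 genes most like each member with a mean of at least 5 CPM, and the 4 most abundant replication-dependent histone genes. The members and lists were chosen with earlier results of these data known. The labels and the study's methods each state a dose and schedule of 4-OHT, which differ, so no dose is printed here. A called gene of 1 of the lists is not reported here.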

Additional observations from a re-analysis of the deposited data

Results flagged for a closer look

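Among 30 sets of 5 libraries (10 genes in 3 groups), 1 held a library far from the other 4 by Dixon's criterion (a gap above 0.71 of the range), and chance marks about 1 in 20 such sets. H2afy in the Fl/Fl 4-OHT culture of mouse 37 was 187 CPM, against 221 to 231 CPM in the other 4, a gap of 0.773 of the range. This is the library with the highest sums of oligodendrocyte (2748 CPM) and astrocyte (6517 CPM) markers and the lowest sum of proliferation genes (775 CPM), and the part of these in its H2afy level was not tested. H2afy was called lower after Trrap deletion in every fit that left out 1 library, with adjusted p from 0.00432 to 0.00941 (edgeR's quasi-likelihood test).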

How the results depend on the processing

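In the Trrap deletion comparison, 165 of 180 values of the 10 genes (10 genes under 18 alternatives) kept their direction and their side of the threshold, 10 lost the call, 5 gained it and none changed sign. H2afy, H2afy2, Cenpa and H1f0 were called under all 18 alternatives. The losses were those of H2afz and H2afv without single libraries and of H2afv with a dispersion shared by all libraries (adjusted p 0.0667), and the gains were H2afx and H3f3a with DESeq2 (adjusted p 0.0431 and 0.0266), H3f3a with the number series as a term (0.0482), and those given above without Fl/Fl mouse 39 or 27. Leaving out 1 library gave 5 to 6 genes called lower after Trrap deletion and 6 to 8 in the comparison with untreated cultures. For 4-OHT in Fl/+ cultures, 0 to 1 genes were called lower when 1 library was left out, and 1 was called lower with DESeq2, with shared dispersion, with sex as a term and with the number series as a term. With the replicate block (the mouse), 2 genes were called lower and 1 higher, and 3809 genes of all tested were called in place of 2044. The number series as a term gave 3170, and leaving out 1 library 1271 (Fl/+ 4-OHT mouse 19) to 2522. Changes of sign after 4-OHT were near 0: leaving out 1 library moved H2afx between -0.24 and 0.05 and H2afy2 between -0.04 and 0.12. The cause of these changes was not tested. H2afz rests on few counts, 37 to 203 per library, and few of its windows are free of copies. Chosen after seeing the data, the length used changed the order of levels as given above, and division by uniquely placed length gave an H2afz share of H2A.Z counts of 15.4%, 16.3% and 10.1% in the 3 groups, against 2.49%, 2.64% and 1.48% per kilobase of exon.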
